A study of Mus musculus with 6 samples.

Results

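The MAP kinase phosphatase genes Dusp1, Dusp2, Dusp4, Dusp5, Dusp6, Dusp7, Dusp10 and Dusp16 and the Sprouty genes Spry1 and Spry2 were examined in haematopoietic stem cells (HSC) sorted by flow cytometry from mouse bone marrow. They were taken as every probe set whose only gene symbol in the platform annotation was one of these 10 names, which gave 15 of the 44991 probe sets on the array. The cells came from wildtype mice or from PU.1 knockdown mice, with 3 arrays of each genotype and 3 animals pooled for each array. PU.1 is the ETS family transcription factor made from Spi1 that directs myeloid and B cell development, and the study set out from its link to the Jun factors in leukaemic stem cells. The way PU.1 was reduced, the strain, age and sex of the animals and the surface markers of the sort are not stated in the labels, and no other allele or treatment is named there for either group.

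MAP kinase phosphatases are dual-specificity enzymes that remove phosphate from both the threonine and the tyrosine of the activation loop of ERK, JNK and p38 kinases, and so switch these kinases off. Several of their genes are themselves induced by MAP kinase signalling, which makes them feedback inhibitors and, in expression data, readouts of recent signalling. Sprouty proteins act higher up, between growth factor receptors and the Ras to ERK cascade, and are induced by the signals they damp. In stem cells the same cascades run downstream of receptors such as Kit.

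The deposited values are probe set intensities in arbitrary units on a linear scale. Tests were made on quantile normalised log2(intensity + 16), so differences of weak probe sets are understated. A difference is always knockdown minus wildtype on that log2 scale, with its standard error (SE) from limma, a moderated linear model fitted to all probe sets. Adjusted p-values are by Benjamini-Hochberg over all probe sets. Intensities depend on each probe set's own affinity, so a higher intensity of one probe set than another is not read as a higher RNA level, and brightness is mentioned only to show that a signal stands clear of the background.

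The targeted gene was lower in every knockdown pool. Spi1 intensities were 1120.0, 718 and 1053 for wildtype pools 1 to 3 in turn, against 362, 360.4 and 119 for knockdown pools 1, 2 and 3, and the difference was -1.76 (SE 0.43, limma adjusted p = 0.503). Of 12 stem and progenitor marker genes, 10 were measured, among them Kit, Cd34, Procr and Hoxa9, and each was brighter than the median probe set. Of the 10, 7 were lower and 3 higher in knockdown pools, beside 46.6% of all genes lower. The median difference was -0.17, and 0.067 without wildtype pool 2. The largest differences were those of Tek (-0.99, SE 0.21), whose groups did not overlap, and Mecom (-0.82, SE 0.34; -0.45 without wildtype pool 2). The summed intensity of the 10 genes was 17001 in wildtype pool 2 and between 8537 and 11721 on the other 5 arrays. Of 11 neutrophil markers 10 were measured and 9 were brighter than the median probe set, with sums of 21395 in wildtype pool 2 and 41008 to 52094 elsewhere. Wildtype pool 2 thus stood apart from the other wildtype pools in its marker levels, and values of the phosphatase and Sprouty genes that rest on it are given with and without it.

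Dusp1 was lower in the PU.1 knockdown pools and had the largest difference of the 15 probe sets, and Spry1 was lower by a smaller margin. For both genes the highest knockdown pool lay below the lowest wildtype pool. Neither passed the test across the array: of all probe sets 0.0% had an adjusted p under 0.05, and of the 15 here 0 did. An unadjusted p under 0.05 was reached by 2 of the 15, Dusp1 and Spry1, beside 7.11% of all probe sets. By the brightest probe set of each gene, 7 of the 10 genes had a lower and 3 a higher mean in knockdown pools, with a median difference of -0.17. Over all 18186 genes 46.6% had a difference below 0 and the median was 0.018. The groups did not overlap for 2 of the 10 genes, beside 13.8% of all genes, and for 3 of the 15 probe sets, beside 12.9% of all probe sets.

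**Figure D1:**
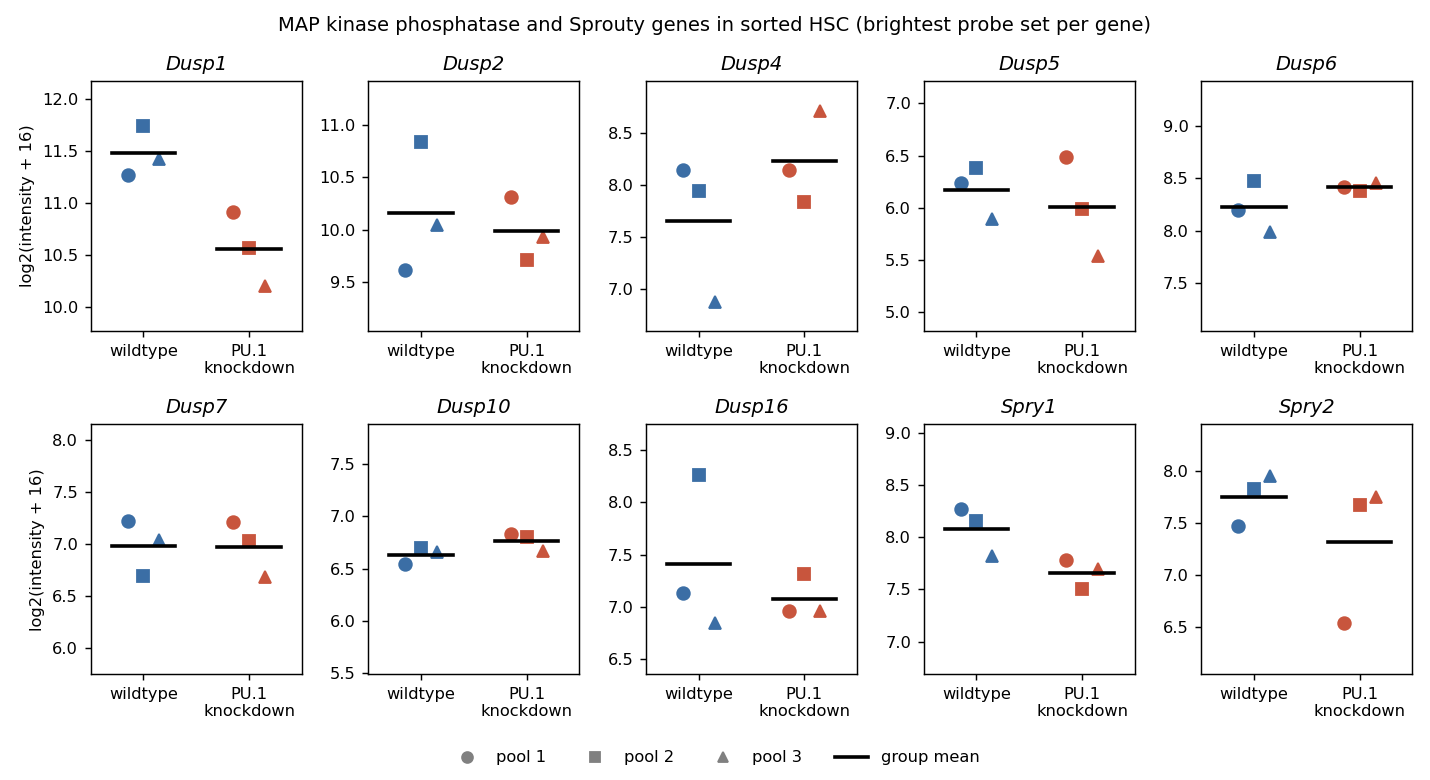
Log2(intensity + 16) of the brightest probe set of each of the 10 genes (vertical axes, each spanning the same number of log2 units) in wildtype (blue) and PU.1 knockdown (red) pools; symbols mark pools 1, 2 and 3 and bars the group means. Dusp1 and Spry1 are the genes whose groups do not overlap, and wildtype pool 2 is the highest of the 6 arrays for Dusp1, Dusp2, Dusp6 and Dusp16.

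Dusp1, Dusp2, Dusp4 and Dusp5 encode the inducible phosphatases found in the nucleus. Dusp1, also called MKP-1, acts on p38 and JNK as well as ERK and is an immediate early gene, transcribed within minutes of a stimulus. Its probe set 1448830_at read 2546, 3365 and 2612 for wildtype pools 1 to 3 in turn, against 1788, 1533 and 1204 for knockdown pools 1, 2 and 3. The lowest wildtype pool therefore lay above the highest knockdown pool. Group means were 2841 ± 455 and 1509 ± 293 intensity units (SD, n = 3 pools each). On the log2 scale Dusp1 averaged 11.48 ± 0.24 and 10.56 ± 0.35, a difference of -0.91 (SE 0.22, 95% interval -1.42 to -0.41), or 0.53 of the wildtype level. The limma p of 0.00312 became an adjusted p of 0.497, and the exact two-sided permutation p was 0.1, the smallest that 3 arrays against 3 can give. With each array left out in turn the difference stayed between -1.09 and -0.74, and without wildtype pool 2 it was -0.78 (SE 0.23). Among the knockdown pools, pool 3 was lowest for both Spi1 and Dusp1, while pools 1 and 2, close to each other in Spi1, read 1788 and 1533 for Dusp1. The wildtype pools went the other way, with the lowest Spi1 (718) and the highest Dusp1 (3365) both in pool 2. A relation between the levels of the 2 genes was not tested.

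The sequence before the Dusp1 transcription start is shown because this is the gene of the group with the largest difference, and that of Spry1 because its groups also did not overlap; Dusp6, whose groups overlapped, is shown beside them. Each run is the 250 bases before the RefSeq start in build GRCm38.p6, 5′ to 3′ on the strand of the gene. They lie at chr17:26508473-26508722 (minus strand) for Dusp1, chr3:37639697-37639946 (plus strand) for Spry1 and chr10:99262981-99263230 (plus strand) for Dusp6. Capitals mark matches, on either strand, to the cyclic AMP response element TGACGTCA, the AP-1 site TGANTCA, the PU.1 type ETS core GAGGAA, the ETS core CCGGAA or the CArG box of serum response factor.
Dusp1: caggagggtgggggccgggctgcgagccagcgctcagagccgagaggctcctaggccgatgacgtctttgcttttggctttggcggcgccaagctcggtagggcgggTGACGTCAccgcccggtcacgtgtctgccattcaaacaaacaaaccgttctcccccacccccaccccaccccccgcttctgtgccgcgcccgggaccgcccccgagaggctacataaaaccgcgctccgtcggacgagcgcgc
Spry1: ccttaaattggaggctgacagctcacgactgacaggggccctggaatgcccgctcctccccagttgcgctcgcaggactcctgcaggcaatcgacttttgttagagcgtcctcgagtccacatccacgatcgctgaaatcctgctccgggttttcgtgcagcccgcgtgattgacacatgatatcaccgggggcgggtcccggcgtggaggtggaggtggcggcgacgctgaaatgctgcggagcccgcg
Dusp6: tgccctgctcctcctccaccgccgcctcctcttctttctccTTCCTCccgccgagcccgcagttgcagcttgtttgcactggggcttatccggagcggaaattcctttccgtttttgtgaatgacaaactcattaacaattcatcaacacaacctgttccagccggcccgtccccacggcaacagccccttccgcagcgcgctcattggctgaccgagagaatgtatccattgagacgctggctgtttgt

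The Dusp1 window holds the cyclic AMP response element, from 143 to 136 bases before the start, a motif found in 1.55% of the 32851 promoter windows of this length. It has no match to GAGGAA, which 23.3% of windows hold, nor to TGANTCA, which 6.75% hold. The Spry1 window holds none of the motifs searched, and in the Dusp6 window the reverse complement of GAGGAA lies 209 to 204 bases before the start. Of the 9 genes with a window, GAGGAA was also found for Dusp5, whose window holds a pair of adjoining CArG boxes (1.47% of windows hold this motif), and CCGGAA (12.0% of windows) for none. These matches describe letters in a short window and not bound sites. Dusp4 had no entry.

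Dusp2, also called PAC-1, is a nuclear phosphatase of haematopoietic cells. Its probe set 1450698_at read 778, 1897 and 1022 for wildtype pools 1 to 3 in turn, against 1129, 837 and 987 for knockdown pools 1, 2 and 3. Wildtype pools held both the lowest and the highest value, and all knockdown pools fell between them. The difference of -0.18 (SE 0.31, 95% interval -0.91 to 0.55) rested on wildtype pool 2, and without that pool it was 0.16 (SE 0.23). Its limma adjusted p was 0.931.

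Dusp4, or MKP-2, a nuclear phosphatase of ERK and JNK, had the highest positive difference of the 15 probe sets. Probe set 1428834_at read 271, 247 and 104 in wildtype and 240.2, 209 and 414 in knockdown pools 1, 2 and 3. Knockdown pool 3 was the highest and wildtype pool 3 the lowest, while the other 4 arrays lay close together and mixed the genotypes. The difference was 0.57 (SE 0.36, 95% interval -0.26 to 1.40, limma adjusted p = 0.79), and it was 0.18 without wildtype pool 3 and 0.33 without knockdown pool 3. Dusp5, a nuclear phosphatase specific to ERK, was dim, at 61.2, 69.4 and 45.3 in wildtype and 68.9, 46.2 and 30.6 in knockdown pools. Its groups overlapped, with a difference of -0.17 (SE 0.26) that became 0.066 without knockdown pool 3.

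**Figure D2:**
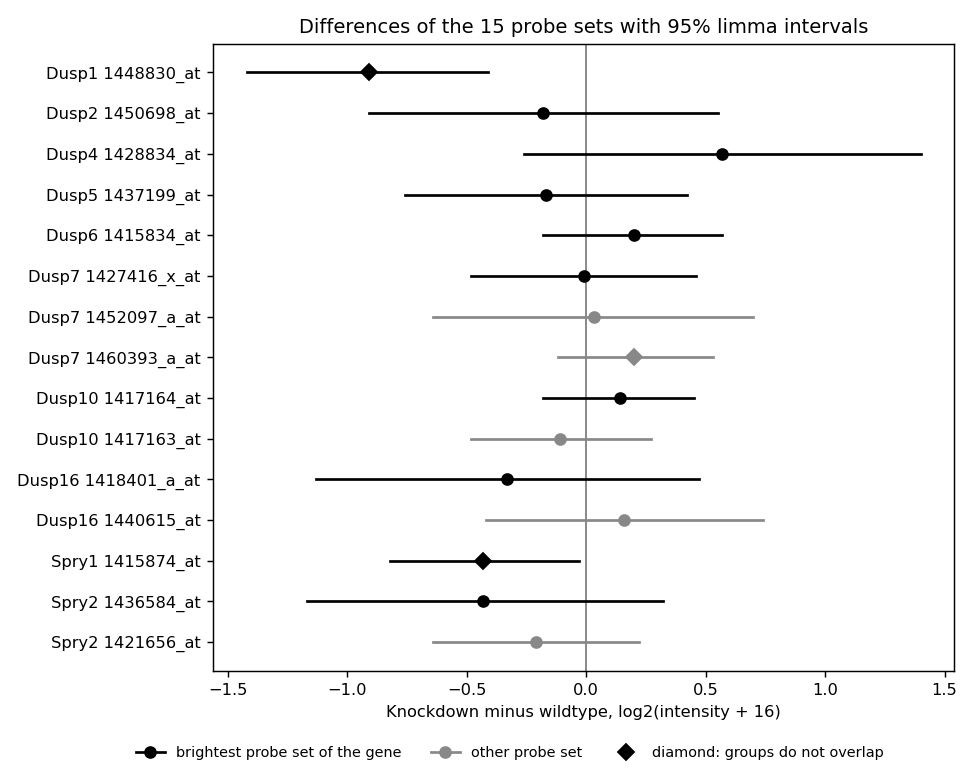
Difference between knockdown and wildtype pools on the log2(intensity + 16) scale (horizontal axis) for each of the 15 probe sets, with 95% limma intervals, not adjusted for the number of probe sets. Black marks the brightest probe set of a gene, grey the others, and diamonds groups that do not overlap; the intervals of Dusp1 and Spry1 lie below 0 and the other 13 include 0.

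Dusp6 and Dusp7 encode the cytoplasmic phosphatases that act on ERK, and Dusp6 transcription is a widely used readout of ERK activity. Dusp6 (1415834_at) read 283, 365 and 239 for wildtype against 293, 316 and 343 for knockdown pools 1, 2 and 3. The knockdown pools were close to each other, with a log2 SD of 0.04 beside 0.24 in wildtype, and lay inside the wildtype range. The difference was 0.20 (SE 0.16, 95% interval -0.18 to 0.57, limma adjusted p = 0.841), or 1.15 of the wildtype level. Without wildtype pool 2 it was 0.32, and without wildtype pool 3 it was 0.081.

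Dusp7 was measured by 3 probe sets, and the 95% interval of each included 0. Its brightest, 1427416_x_at, read 137, 91.2 and 117 in wildtype and 121, 112 and 87.6 in knockdown pools, and the difference was -0.010 (SE 0.20, 95% interval -0.48 to 0.46). The suffix x marks a probe set in which some probes may also bind other transcripts. For 1452097_a_at the difference was 0.033 (SE 0.29), and without normalisation it was -0.037. For 1460393_a_at it was 0.20 (SE 0.14); here the normalised groups did not overlap, with knockdown higher, while among the deposited intensities knockdown pools 1 and 3, at 48.3 and 48.7, lay just under wildtype pool 3 at 48.8. The limma adjusted p-values of the 3 probe sets were 0.995, 0.989 and 0.81.

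Dusp10 and Dusp16 encode phosphatases that prefer JNK and p38 to ERK. Dusp10 varied little between the pools of a group: probe set 1417164_at read 78.9, 91.4 and 87.2 in wildtype and 89.8, 93.0 and 87.2 in knockdown pools. These values lie close to the array medians of 81.4 to 91.5, so the small spread is not read as steady expression. The log2 SD was 0.08 in each group and the difference was 0.14 (SE 0.13, 95% interval -0.18 to 0.45). Its dimmer probe set 1417163_at had a difference of the other sign, -0.11 (SE 0.16). Neither passed, with limma adjusted p-values of 0.867 and 0.922.

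Dusp16 (1418401_a_at) read 127, 309 and 101 in wildtype and 99.3, 139.7 and 110.0 in knockdown pools. Wildtype pool 2 alone stood out, and the other 5 arrays spanned 99.3 to 139.7 with both genotypes mixed. The difference was -0.33 (SE 0.34, limma adjusted p = 0.872) with all arrays and 0.093 (SE 0.19) without wildtype pool 2. The second probe set, 1440615_at, was at the background, with intensities from -4.0 to 14.7, and its difference of 0.16 (SE 0.25) became -0.062 without knockdown pool 2.

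Spry1 and Spry2 encode adaptor proteins that bind Grb2 and the ubiquitin ligase Cbl and hold back Ras activation. Spry1 (1415874_at) read 300.1, 289 and 212 for wildtype against 184, 160.1 and 195 for knockdown pools 1, 2 and 3. No knockdown pool reached the lowest wildtype pool, although wildtype pool 3 was closer to the knockdown pools than to the other wildtype pools. Group means were 267 ± 48.0 and 180 ± 17.9 intensity units (SD, n = 3 pools each). The difference was -0.43 (SE 0.17, 95% interval -0.82 to -0.03), or 0.744 of the wildtype level. The limma p of 0.037 became an adjusted p of 0.676, and the exact two-sided permutation p was 0.1, the smallest possible here. With 1 array left out the difference ran from -0.56 to -0.33 and the unadjusted limma p from 0.0151 to 0.124, with only the fits without wildtype pool 3 or without knockdown pool 1 under 0.05.

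Spry2 had negative differences on both of its probe sets, and on both the groups overlapped. Probe set 1436584_at read 165, 226 and 232 in wildtype and 71.8, 184 and 202 in knockdown pools, so that knockdown pool 1 lay far below the other 5 arrays. The difference of -0.43 (SE 0.32, limma adjusted p = 0.828) was as large as that of Spry1, but it was -0.036 without knockdown pool 1. Probe set 1421656_at read 147, 148 and 112 in wildtype and 83.8, 136 and 108 in knockdown pools, with a difference of -0.21 (SE 0.19, limma adjusted p = 0.852) that was -0.082 without knockdown pool 1. That pool was again the lowest array.

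**Figure D3:**
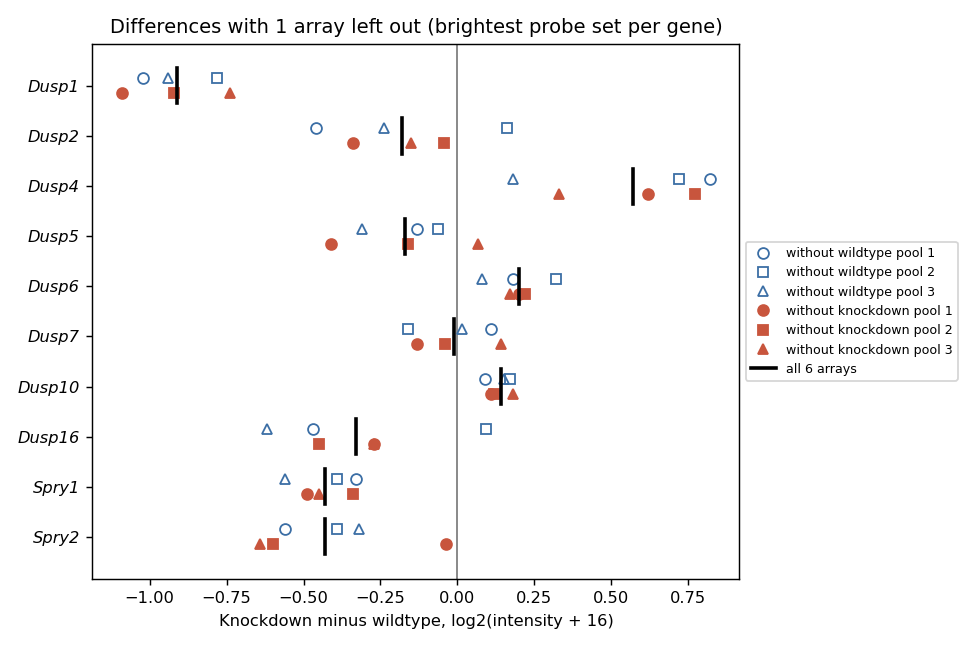
Knockdown minus wildtype difference on the log2(intensity + 16) scale (horizontal axis) of the brightest probe set of each gene, with all 6 arrays (black bar) and with 1 array left out (open blue symbols, a wildtype pool; filled red symbols, a knockdown pool). Dusp1 keeps a difference of at most -0.74, whereas Dusp2 and Dusp16 move above 0 without wildtype pool 2 and Spry2 moves to -0.036 without knockdown pool 1.

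The pools differed within genotypes in a way that several of these genes shared. Averaged over the 10 genes, the log2 value centred on each gene's mean was 0.33 in wildtype pool 2. Wildtype pool 1 stood at 0.03 and wildtype pool 3 at -0.12, while the knockdown pools ranged from -0.12 to -0.02. Wildtype pool 2 was the highest array for 4 of the 10 genes and the lowest for 0. This is the pool with the highest stem and progenitor marker sum and the lowest neutrophil sum, and the part of cell composition in these values was not tested. Without it, 5 of the 10 genes had a lower mean in knockdown pools, beside 49.0% of all genes in that fit. The groups then did not overlap for Dusp1 and Spry1, lower in knockdown pools, and for Dusp6 and Dusp10, higher, or 4 of the 10, beside 28.6% of all genes with 2 wildtype pools against 3 knockdown pools. For Dusp10 this rested on normalised log2 values of 6.67 in knockdown pool 3 and 6.66 in wildtype pool 3. The deposited intensities of these pools were the same, 87.2.

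Summed markers of other blood cells also separated the genotypes in some cases. The eosinophil genes, 5 measured of 7, had summed intensities of 1971 to 12493 in wildtype and 227 to 1174 in knockdown pools. Of these genes 4 were lower and 1 higher, and 3 lower genes were without overlap. Those were Epx (-3.69, SE 0.88), Prg2 (-3.06, SE 0.74) and Prg3 (-3.68, SE 0.87). Groups overlapped for the dimmer Ccr3 (-0.36, SE 0.22) and Il5ra (0.0018, SE 0.25). The mast cell and basophil genes, 6 of 7 measured, had sums of 512 to 1027 in wildtype and 1539 to 3449 in knockdown pools, without overlap. Sums overlapped for monocyte and macrophage (9 of 10 genes, 5497 to 9223 against 4120 to 6787), B lymphoid (7 of 8, 1891 to 2431 against 872 to 1895) and megakaryocyte and platelet genes (7 of 9, 7304 to 14288 against 2506 to 7584). For the B lymphoid and platelet lists the overlap was slight. Of 7 B lymphoid genes 5 were lower in knockdown pools (median difference -0.78), 3 of them without overlap. Of the 2 higher genes, Igll1 (0.24, SE 0.16) was also without overlap. Of 7 megakaryocyte and platelet genes 6 were lower (median -1.32), 3 of them without overlap. Of 9 monocyte and macrophage genes 8 were lower (median -0.33), 2 of them without overlap. Across all genes 46.6% had a difference below 0, and for 13.8% the groups did not overlap. Sums also overlapped for T and NK (7 of 9, 1516 to 4413 against 2849 to 4327), erythroid (6 of 8, 3060 to 6599 against 3721 to 9461), and stromal and endothelial genes (7 of 7, 572 to 3051 against 723 to 2994). Neutrophil sums overlapped as well, at 21395 to 52094 against 41008 to 51243. Of the 10 neutrophil genes 7 were higher, 2 of them without overlap, and 3 lower. Their median difference was 0.21, and -0.19 without wildtype pool 2. No marker measured was at the floor on all 6 arrays. The wildtype pool with the highest Dusp1 value, pool 2, had the lowest sum of its group for every list but the stem and progenitor one. Knockdown pools 1, 2 and 3 read 1788, 1533 and 1204 for Dusp1. Sums fell in that order for eosinophil (1174, 550 and 227), monocyte (6787, 5510 and 4120) and B lymphoid genes (1895, 1578 and 872). They did not for the other lists, such as platelet genes (7564, 2506 and 7584) and mast cell and basophil genes (1548, 1539 and 3449). In a bulk sample fewer cells of a type and less RNA per cell cannot be told apart, and the part of these cells in the Dusp1 and Spry1 differences was not tested.

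The genes whose levels followed Dusp1 most closely over the 6 arrays were found by the root mean square distance between centred log2 values, among 12008 genes brighter than the median. The nearest were Def8 (distance 0.10 log2 units), Matk (0.127), Jun (0.132), Ier5 (0.144) and Socs2 (0.145), where the median distance was 0.564 and 13 genes lay within 0.2. Jun encodes the AP-1 subunit and Ier5 is an immediate early gene; Matk encodes a kinase that restrains Src family kinases, and Socs2 a feedback inhibitor of cytokine receptors. Their own differences ran from -1.13 (SE 0.23) for Jun to -0.71 (SE 0.19) for Ier5. For Dusp4, the gene of smallest p among those with a positive difference, the nearest were Slc30a4 (0.147), Casp12 (0.165), Pim2 (0.192), Card10 (0.248) and Tgm2 (0.255). Genes chosen for their likeness must resemble the pattern, so these values are a description.

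**Figure D4:**
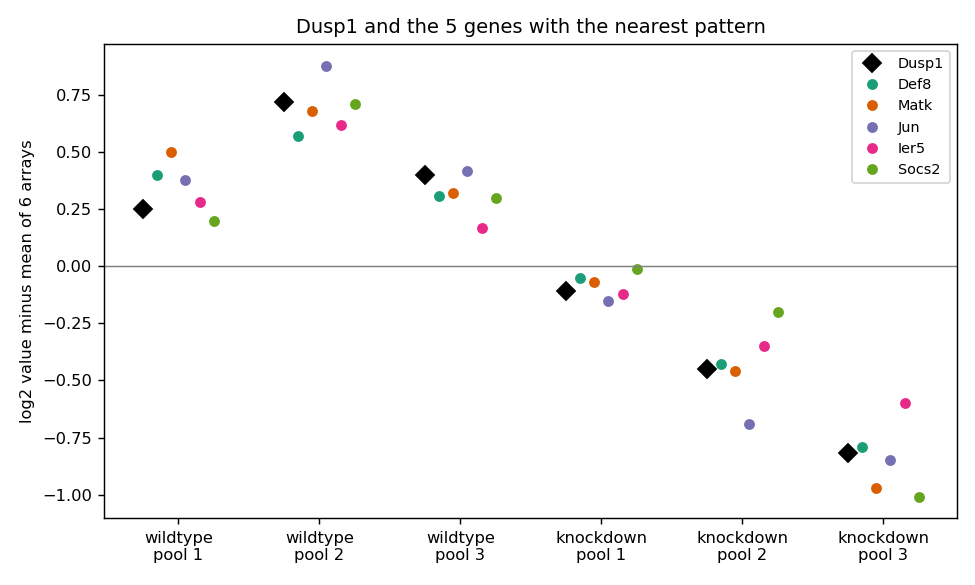
Log2 value minus the mean of the 6 arrays (vertical axis) of Dusp1 (black diamonds) and the 5 genes with the nearest pattern, for each pool (horizontal axis). All 6 genes are above 0 in every wildtype pool, highest in wildtype pool 2, and below 0 in every knockdown pool, lowest in knockdown pool 3.

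Other genes of the MAP kinase pathways were taken from lists, each gene by its brightest probe set. Across all genes 3.52% had an unadjusted p under 0.05 with lower and 4.1% with higher values in knockdown pools, and 0.0% passed adjustment; 0 genes of these lists passed it. Of 21 transcriptional targets and effectors of ERK measured (22 listed), 11 were lower and 10 higher, with a median difference of -0.023. Among them 4 lower genes (Egr1, Egr2, Fos and Elk3) and 3 higher genes (Etv5, Myc and Plk3) had an unadjusted p under 0.05. Egr2, at 14.6 to 68.0, was dimmer than the array medians of 81.4 to 91.5, and Plk3, at 54.0 to 102.2, lay close to them. Egr1, an immediate early zinc finger factor, read 3107, 4262 and 2864 in wildtype and 1600.2, 1469 and 1190.0 in knockdown pools. Its groups did not overlap and it differed by -1.23 (SE 0.21, limma adjusted p = 0.382). Fos differed by -0.46 (SE 0.14), and Plk3, a stress-responsive kinase gene, and Myc by 0.66 (SE 0.13) and 0.46 (SE 0.14).

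Upstream of ERK, 15 of 17 adaptor and Ras regulator genes were measured. Of these 10 were lower and 5 higher, with a median of -0.19, which was -0.0059 without knockdown pool 1, and 1 gene was under an unadjusted p of 0.05. That gene was Cbl, the ubiquitin ligase that binds Sprouty proteins, at 1050.1, 903 and 1059 in wildtype and 582, 709 and 733 in knockdown pools (difference -0.49, SE 0.15, limma adjusted p = 0.574). Ptpn11, the phosphatase that carries receptor signals to Ras, differed by -0.29 (SE 0.15), and Nras and Rasgrp1 by 0.24 (SE 0.16) and 0.21 (SE 0.16). The 10 of 15 ERK cascade kinase genes measured were lower in 7 and higher in 3, with a median of -0.09 and 0 under an unadjusted p of 0.05. Rps6ka3 and Braf differed by -0.40 (SE 0.18) and -0.20 (SE 0.13), and Mknk2 and Mknk1 by 0.20 (SE 0.13) and 0.18 (SE 0.14). Growth factor receptor genes, 8 of 9 measured, were lower in 6 and higher in 2, with Tek at -0.99 (SE 0.21), Kit at -0.39 (SE 0.23; -0.15 without wildtype pool 2), Pdgfrb at 2.0 (SE 0.37) and Insr at 0.10 (SE 0.16; -0.0058 without wildtype pool 1).

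In the JNK and p38 cascades, where Dusp1 also switches off some of the end kinases, 15 of 16 kinase genes were measured. Of these 8 were lower and 7 higher, with a median of -0.039. The exception in size was Mapk12, which encodes p38 gamma, at 97.5, 185 and 90.4 in wildtype and 346, 278 and 626 in knockdown pools. Its groups did not overlap and it differed by 1.70 (SE 0.32, limma p 0.000826, adjusted p = 0.426). Mapkapk2, a kinase activated by p38, and Mapk8, which encodes JNK1, differed by -0.43 (SE 0.25) and -0.23 (SE 0.14), and Mapk11 by 0.23 (SE 0.16). Of the 4 ERK5 cascade genes, Mapk7 and Map2k5 differed by 0.19 (SE 0.15) and 0.18 (SE 0.16). Map3k2 and Map3k3 had differences of -0.067 (SE 0.20) and -0.036 (SE 0.18) that each became 0.12 without wildtype pool 2, so that 0 of the 4 genes were then lower. The sign of Map3k2 also turned without knockdown pool 1 (0.0094) and that of Map3k3 without knockdown pool 3 (0.044).

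Relatives of the phosphatase and Sprouty genes went in both directions. Of 17 other dual-specificity phosphatase genes, 9 were lower and 8 higher, with a median of -0.034, and 2 lower and 1 higher had an unadjusted p under 0.05. Dusp22, an atypical phosphatase that acts in JNK signalling, differed by -0.82 (SE 0.27) and Dusp3 by -0.69 (SE 0.25), while Dusp19 and Dusp12 differed by 0.39 (SE 0.15) and 0.36 (SE 0.21). Of the 5 other Sprouty and Spred genes, 2 were lower and 3 higher. Spred1, an inhibitor of Ras activation related to Sprouty, read 541, 636 and 538 in wildtype and 606, 683 and 741 in knockdown pools. Its difference of 0.31 (SE 0.13, limma adjusted p = 0.695) was opposite in sign to that of Spry1. Its relatives Spry3, Spry4 and Spred3 differed by -0.022 (SE 0.13; 0.014 without knockdown pool 3), 0.16 (SE 0.16) and -0.30 (SE 0.15). These relatives were dimmer than the median probe set, Spred3 most of all at 10.6 to 24.0.

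**Figure D5:**
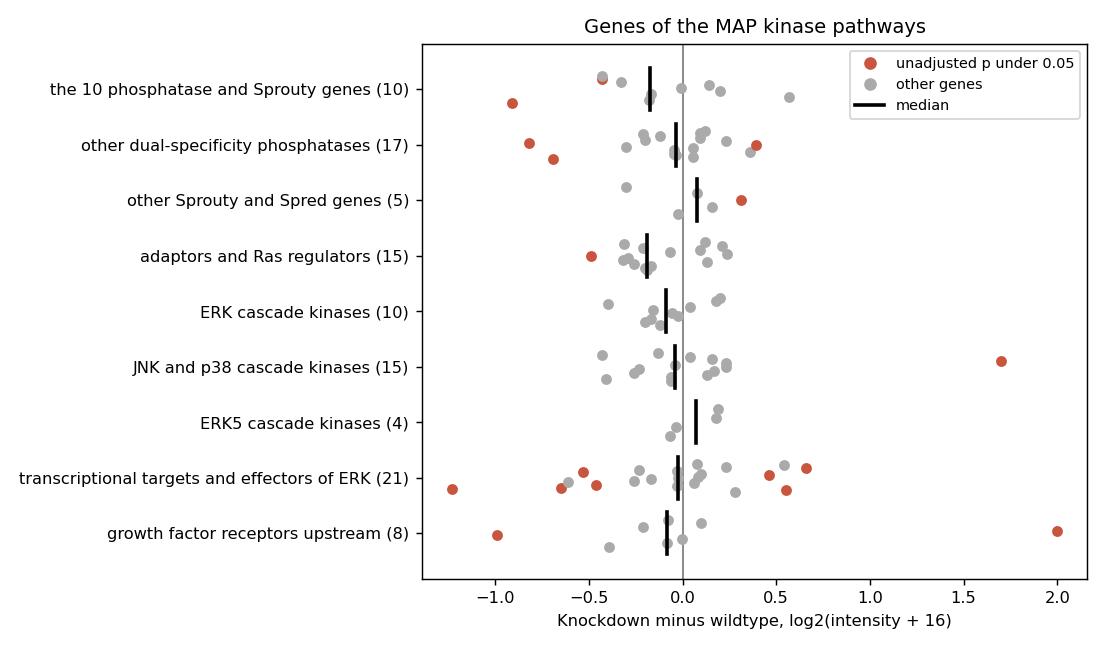
Knockdown minus wildtype differences on the log2(intensity + 16) scale (horizontal axis) of single genes in the 10 phosphatase and Sprouty genes and in 8 other lists of the MAP kinase pathways, with the number of genes measured in brackets; bars are medians and red points have an unadjusted limma p under 0.05. Medians lie between -0.19 and 0.078, and single genes such as Egr1 at -1.23, Mapk12 at 1.70 and Pdgfrb at 2.0 lie far from them.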

How the data were processed

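RNA from sorted HSC was amplified by 2 cycles of reverse transcription and in-vitro transcription from a T7 promoter, which favours 3' ends, and hybridised to Affymetrix whole-genome mouse arrays, per the labels' protocols. The deposited table holds the authors' intensity values per probe set on a linear scale; their software, background correction and scaling are not stated there or in the labels. Array medians were 81.4 to 91.5, and 264 to 409 values per array were below 0. A floor of 1 was applied, 16 was added, and the log2 values were quantile normalised and fitted with lmFit and eBayes of limma 3.58.1 (R 4.3.3), two-sided, on all 44991 probe sets, with a Benjamini-Hochberg threshold of 0.05. The statistics had 7.81 degrees of freedom. Exact permutation tests used scipy 1.17.1. The fit was also run on simulated data with planted changes. Most of the smaller planted changes did not pass the threshold. A gene that did not pass is therefore not shown to be unchanged. Pools served as replicates; with so few arrays precision is low.

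Gene names came from the platform annotation (34921 with 1 symbol, 930 with several, 9140 with none). All 15 gene IDs matched the RefSeq table for GRCm38.p6, and 9 of the 10 genes in RefSeq's promoter table. Each listed gene is represented by its brightest probe set. Named were all 15 probe sets, Spi1 and up to 2 genes of smallest p per direction in each pathway list. Also named were the 5 genes nearest in pattern to the gene of smallest p per direction. Egr2, Elk3 and Etv5 were named after their values were seen, as were the marker genes cited. List genes with no probe set of 1 symbol were not analysed here. The genes and lists were chosen with earlier results of these data known. Alternatives changed the normalisation, pseudocount, filter, variance model, array weights, block, probe set rule and arrays used.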

Additional observations from a re-analysis of the deposited data

How the results depend on the processing

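Under the 10 processing alternatives (no normalisation, median centring, a pseudocount of 1 or 64, keeping probe sets above percentile 40 or 60 of the mean, eBayes with a trend, robust eBayes, array weights and the replicate block) 0 probe sets passed the threshold, 2 of those examined had an unadjusted p under 0.05, and the difference ran from -0.92 to -0.84 for Dusp1 (adjusted p 0.322 to 0.674) and from -0.52 to -0.35 for Spry1 (adjusted p 0.549 to 0.748). The number of genes lower in knockdown pools was 7, but 6 and 5 with the filters, which removed dim genes, and 6 with the mean of a gene's probe sets. With 1 array left out, 0 to 2 probe sets passed, 1 to 2 of those examined had an unadjusted p under 0.05, 5 to 7 of the 10 genes were lower (beside 45.2% to 49.0% of all genes), and groups did not overlap for 2 to 4 (beside 22.3% to 28.6% of all genes). Of 228 alternative values of the 15 probe sets, 1 under processing and 10 with 1 array left out changed sign, all with an unadjusted p over 0.05 and in 6 probe sets. Dusp2 was 0.16 and Dusp16 (1418401_a_at) 0.093 without wildtype pool 2, Dusp5 0.066 without knockdown pool 3, and Dusp16 (1440615_at) -0.062 without knockdown pool 2; with other arrays left out they reached -0.46, -0.62, -0.41 and 0.37. Dusp7 (1427416_x_at) was 0.11, 0.015 and 0.14 without wildtype pool 1, wildtype pool 3 or knockdown pool 3 and reached -0.16, and Dusp7 (1452097_a_at) was -0.037 as deposited and -0.11, -0.14 and -0.12 without wildtype pool 1, knockdown pool 1 or knockdown pool 2 and reached 0.37. The cause was not tested.

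Pool numbers are shared between the genotypes, but nothing says that they pair the pools. Deviations from the group means correlated at 0.178, 0.061 and -0.0392 for pools 1, 2 and 3, and not every pool correlated best with its own number. With the replicate block 0 probe sets passed and the difference was -0.91 for Dusp1 (adjusted p 0.459) and -0.43 for Spry1 (adjusted p 0.672). The intensity over background limits Dusp5, the dimmer Dusp7 probe sets, both Dusp10 probe sets and above all Dusp16 1440615_at.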
